A study of Mus musculus with 3 samples.

Results

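The extracellular matrix is the protein scaffold between cells, and 34 of its genes outside the collagens were followed here in the popliteal lymphnode, out of 48568 gene symbols in the deposited tables. The members are a list of gene names: Fn1, 7 proteoglycan genes, 9 elastic fibre genes, 6 matricellular genes, 9 basement membrane genes, Mgp and Matn2. All 34 symbols were found, each as a single entry with a value in every library.

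RNA of whole popliteal lymphnodes was sequenced as 1 pooled library per group, from untreated mice of 5 months on the C57Bl/6 strain. The B6F pool held 6 wildtype females, the SryHi pool 3 XY males of the FCG mouse model, and the B6M pool 6 wildtype males. In the FCG model Sry, the gene that directs testis formation, is deleted from the Y chromosome and carried instead as a transgene on an autosome, so the SryHi males have a Y chromosome without its own Sry. The B6F pool was set against B6M for the difference between the sexes, and the SryHi pool against the same B6M library for the difference that goes with the transgene. The 2 comparisons therefore share B6M and are not independent of each other. With 1 library per group there was no spread between replicates, no test was run, and every difference below is between libraries and not between populations of mice. Sry was listed at 0 FPKM in B6F, at 20.8 FPKM in SryHi and at 0 FPKM in B6M.

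Fibroblastic reticular cells build the lymphnode from within. They lay down thin fibres with a fibrillar core and a basement membrane coat, and this conduit network carries lymph-borne antigen and chemokines past the lymphocytes. The capsule, the vessel walls and the fat around the node hold further matrix: fibronectin and small leucine-rich proteoglycans that bind collagen fibrils, elastic fibres of elastin on a fibrillin scaffold, and laminin, nidogen and perlecan in basement membranes. Matricellular proteins such as tenascin C and periostin sit in the matrix but act mainly on cell behaviour and fibril assembly. In RNA of whole tissue, fewer cells of a type and less RNA per cell cannot be told apart.

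The deposited unit is FPKM, a fragment count scaled to the length of the transcript and to the depth of the library, so levels can be set between genes as well as between libraries. Ratios are given as log2 of FPKM + 1 in 1 library over FPKM + 1 in the other, which understates the difference of genes near 1 FPKM. Only genes whose 2 libraries averaged 1 FPKM or more were measured in this way, and higher or lower calls needed 2-fold. The libraries held an estimated 5900000, 5200000 and 6700000 fragments in B6F, SryHi and B6M, read from the steps of low FPKM values, and 15367, 15457 and 15325 genes at 1 FPKM or more. By the same estimate 20 members had at least 100 fragments in every library, while Mfap4, Mfap5, Efemp1 and Fbln1 had under 20 in some library. The libraries' total FPKM differed far more than their protein-coding total, which was 344983 in B6F, 361881 in SryHi and 365290 in B6M. Rescaling by that whole total moved the median log2 ratio of all genes to 1.28 for SryHi over B6M. The authors' FPKM scale was therefore kept, on which that median was 0.04, and within-library ratios of 2 genes, which no scaling changes, are given beside the levels. Rescaling multiplies a library by 1 constant, so only the added 1 can change a gene's distance from the all-genes median. On the total-FPKM scale that 1 was worth 5.15 FPKM in B6F, 1.35 FPKM in SryHi and 4.29 FPKM in B6M.

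The matrix transcripts were dominated by decorin in all 3 libraries. Dcn, the proteoglycan that coats collagen fibrils, held 34.3% of the members' summed FPKM in B6F, 45.9% in SryHi and 32.0% in B6M. Dcn ranked the highest and Bgn came after it in every library, with Postn and Sparc in the next 2 places in each, and these 4 genes made up 63.6% of the sum in B6F, 75.5% in SryHi and 65.3% in B6M. At the other end Mfap4, a microfibril-associated glycoprotein, was the lowest member in every library at 0.388 FPKM in B6F, 0.131 FPKM in SryHi and 0.261 FPKM in B6M, a level that rests on an estimated 4, 1 and 3 fragments. The sum of all 34 members was 483 FPKM in B6F, 927 FPKM in SryHi and 677 FPKM in B6M. Without Dcn the sums were 317, 501 and 460 FPKM in the same libraries, so Dcn alone supplied most of the distance between SryHi and B6M.

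**Figure D1:**
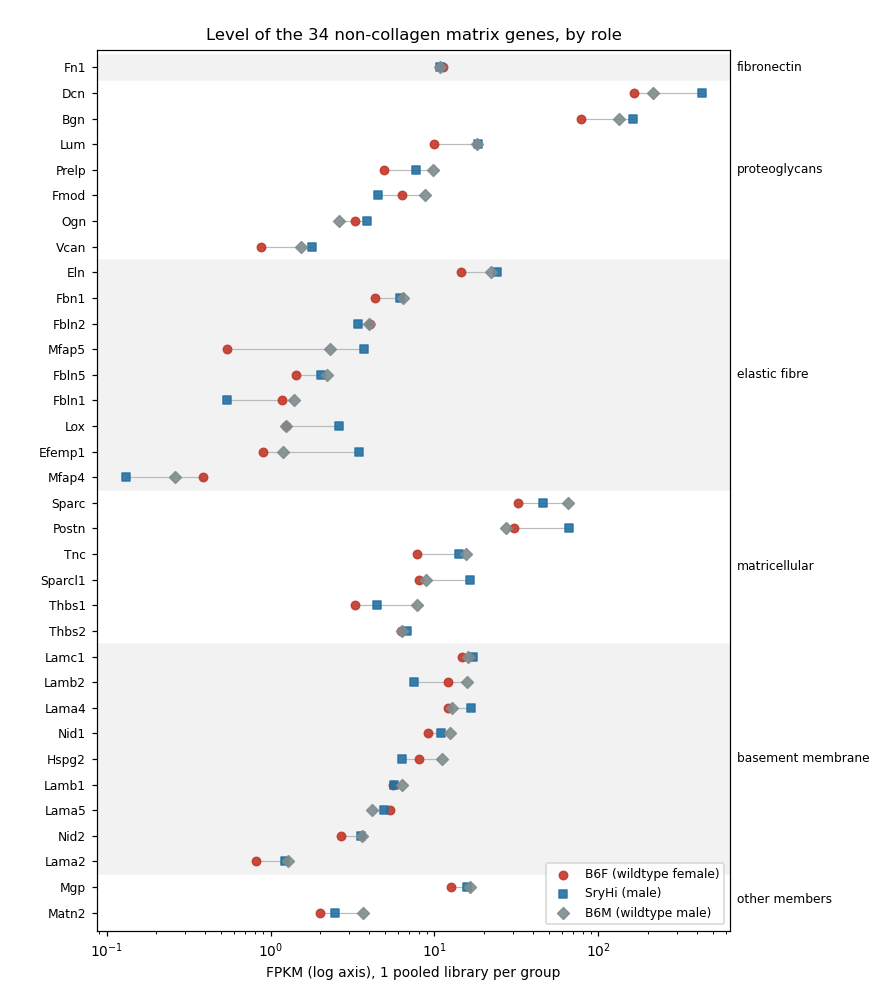
FPKM of each of the 34 matrix genes in the B6F, SryHi and B6M libraries on a log10 axis, 1 point per pooled library, with genes grouped by role. Dcn stands highest at 166 FPKM in B6F, 426 FPKM in SryHi and 217 FPKM in B6M, and 23 of the 34 genes have their lowest point in B6F.

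As few sequences can stand for the group, the 250 bases upstream of the RefSeq transcript start (build GRCm38.p6) are shown for 4 genes that mark its contrasting patterns: Postn and Efemp1, which passed 2-fold in SryHi, Lamb2, which fell just short of 2-fold lower there, and Sparc, which fell just short in B6F. They were read 5′ to 3′ on the gene's strand from chr3:54360857-54361106 (plus strand, Postn, the one of its 2 entries nearer to the GENCODE gene start), chr11:28852955-28853204 (plus, Efemp1), chr9:108479612-108479861 (plus, Lamb2) and chr11:55420081-55420330 (minus, Sparc), and capitals mark matches to 6 motifs searched on both strands.
Postn: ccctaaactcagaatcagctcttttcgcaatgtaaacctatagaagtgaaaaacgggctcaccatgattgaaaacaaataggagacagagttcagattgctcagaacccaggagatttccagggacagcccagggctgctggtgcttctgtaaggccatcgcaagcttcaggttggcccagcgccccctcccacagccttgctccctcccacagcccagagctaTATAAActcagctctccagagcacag
Efemp1: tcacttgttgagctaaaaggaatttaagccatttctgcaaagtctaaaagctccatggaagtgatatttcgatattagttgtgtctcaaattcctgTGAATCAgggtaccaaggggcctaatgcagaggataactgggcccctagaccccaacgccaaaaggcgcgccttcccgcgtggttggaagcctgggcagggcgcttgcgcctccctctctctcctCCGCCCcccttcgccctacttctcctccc
Lamb2: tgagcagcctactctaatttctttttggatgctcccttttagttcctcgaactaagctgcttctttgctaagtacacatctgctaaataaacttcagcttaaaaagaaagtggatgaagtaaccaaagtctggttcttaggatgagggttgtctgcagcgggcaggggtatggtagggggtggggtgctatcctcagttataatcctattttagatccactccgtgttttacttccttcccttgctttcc
Sparc: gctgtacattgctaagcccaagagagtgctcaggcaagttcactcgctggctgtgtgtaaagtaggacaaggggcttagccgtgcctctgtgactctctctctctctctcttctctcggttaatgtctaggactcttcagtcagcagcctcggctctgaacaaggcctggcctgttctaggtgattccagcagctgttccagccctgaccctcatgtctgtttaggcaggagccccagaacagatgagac
The capitals in Postn are TATAAA, the TATA box letters, 26 to 21 bases before the start. Those in Efemp1 are an AP-1 motif (TGANTCA) 154 to 148 bases before the start and the reverse complement of a GC box (GGGCGG) 29 to 24 bases before it. Lamb2 and Sparc held none of the 6 motifs in this window. RefSeq promoters were at hand for 20 members, with 24 starts in all. TATAAA was present in 5 of these 24 (of the genes Ogn, Postn, Thbs2 and Tnc), against 12.4% of 32851 promoters of the same length, GGGCGG in 13 against 32.7%, CCAAT in 6 against 33.8%, TGANTCA in 1 (Efemp1) against 6.75%, GGAATG, a TEAD motif, in 2 against 12.6%, and the CArG box of serum response factor in 1 (Lama2) against 1.47%. A CArG box can hold the letters TATAAA or CCAAT, so these motifs can overlap. A match is a description of the sequence, not a bound site. The GC content of the members' promoters had a median of 53.8%, against 52.4% over all promoters.

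In the comparison of the sexes, the matrix genes stood on the low side in females, with small differences for most. Of the 33 members that passed the filter, 27 had a ratio below 0 and 6 above it, where 48.7% of 15523 genes lay below 0 and 51.3% above (52.4% and 47.6% of protein-coding genes). The members' median log2 ratio was -0.37, beside 0.01 over all genes and -0.02 over protein-coding genes. At 2-fold, 2 members were lower in B6F (Mfap5 and Thbs1), against 2.77% of all genes and 1.58% of protein-coding genes, and 0 were higher, against 2.83% and 0.813%. At 1.5-fold 8 members were lower (Bgn, Lum, Matn2, Mfap5, Prelp, Sparc, Thbs1 and Tnc), against 7.87% of all genes, and 0 were higher, against 7.88%. Without the filter on low values Mfap4 is included and the median of the 34 is -0.36. The rescaling by total FPKM moved the all-genes median to -0.16, and a rescaling to stromal and blood endothelial markers moved it to 0.27. On the total-FPKM scale the members' median was -0.28. Their distance from all genes was -0.13 there (25 of 33 below), -0.38 on the FPKM scale and -0.37 on the stromal markers (29 of 33 below on each). As only the added 1 can change these distances, the scales do not give separate results.

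Between SryHi and B6M the same genes were split. Of the 32 members that passed the filter, 15 had a ratio above 0 and 17 below, where 53.4% of 15566 genes lay above and 46.6% below (52.4% and 47.6% of protein-coding genes). The members had a median log2 ratio of -0.01 beside 0.04 over all genes. At 2-fold, 2 members were higher in SryHi (Postn and Efemp1), against 3.7% of all genes and 1.97% of protein-coding genes, and 0 were lower, against 4.14% and 1.95%. At 1.5-fold 5 were higher (Dcn, Efemp1, Lox, Postn and Sparcl1), against 12%, and 4 were lower (Fmod, Hspg2, Lamb2 and Thbs1), against 10.7%. Counted from the all-genes median instead of 0, 14 members were above and 18 below. The split was the same under every scaling tried, which is no separate result, as only the added 1 could change it. Fbln1 and Mfap4 did not reach the filter in this pair. Across the 3 libraries 13 members differed by at least 2-fold in plain FPKM between their highest and lowest level. The share was 22.0% of all genes and 14.7% of protein-coding genes averaging 1 FPKM or more (any with a library at 0 included). The members were not filtered in this count. The 13 include Mfap4, Mfap5, Efemp1 and Fbln1, each with under 20 estimated fragments in some library. Another 5 members differed by under 1.2-fold, for which no share of all genes was taken. Signs turned with the scaling. In B6F over B6M those that turned lay near 0. They were Fn1, Fbln2, Lox and Postn on the total-FPKM scale, and Fbln2 and Lox on the median gene. On the stromal markers they were Fbln1, Sparcl1, Thbs2, Lama4, Lamb1 and Lamc1. In SryHi over B6M all 17 negative signs turned on the total-FPKM scale, also those far from 0 such as Lamb2 (-0.99) and Fmod (-0.81). Lum turned there on the median gene, and Lum, Thbs2 and Lamc1 on the stromal markers. Every direction given for SryHi is therefore one relative to the bulk of genes.

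**Figure D2:**
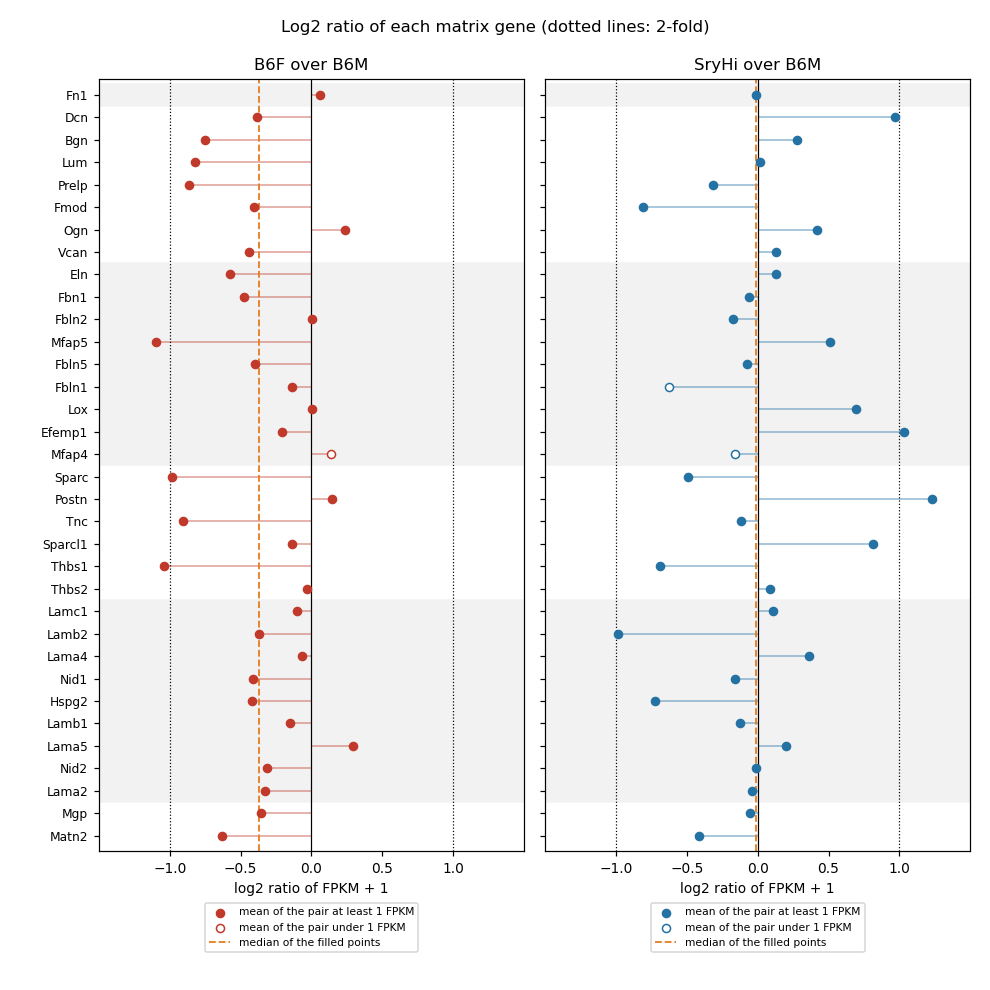
Log2 ratio of FPKM + 1 for each matrix gene, B6F over B6M on the left and SryHi over B6M on the right, with open points for genes that averaged under 1 FPKM, dotted lines at 2-fold and a dashed line at the median of the filled points. The left panel leans below 0 (27 of 33 filled points, median -0.37) and the right panel spreads to both sides (15 above and 17 below, median -0.01), while on the total-FPKM scale all 32 points of the right panel move above 0 together with the median of all genes.

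Fibronectin, the glycoprotein that links integrins to collagen and on which other matrix is assembled, had nearly the same level in the 3 libraries. Fn1 (ENSMUSG00000026193.15, chr1:71585520-71653200) had 11.4 FPKM in B6F, 10.8 FPKM in SryHi and 10.8 FPKM in B6M. Its log2 ratios were 0.06 for B6F over B6M and -0.01 for SryHi over B6M, the narrowest range of the 34 members.

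Of the proteoglycans, 6 of 7 lay below 0 in females, against 48.7% of all genes. In SryHi 5 of 7 lay above 0, against 53.4% of all genes, and 3 of 7 lay below the all-genes median. Their median log2 ratio was -0.44 for B6F over B6M and 0.13 for SryHi over B6M. Counted from the all-genes median, that for SryHi was 0.09 on the FPKM scale and -0.02 on the total-FPKM scale, where the added 1 weighs differently. Their summed FPKM was 270 in B6F, 624 in SryHi and 391 in B6M. Dcn (ENSMUSG00000019929.15, chr10:97479609-97518143) accounted for most of that, with 166 FPKM in B6F, 426 FPKM in SryHi and 217 FPKM in B6M. SryHi stood clear of both wildtype pools for this gene, 1.97-fold above B6M, and just short of 2-fold with a log2 ratio of 0.97. The estimate of fragments behind it was 1713, 3924 and 2539, so counting error is small here and the unknown is the spread between pools.

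Biglycan, a close relative of decorin, stood in the same order with a smaller step in SryHi. Bgn (ENSMUSG00000031375.17, chrX:73483602-73495933) had 78.7 FPKM in B6F, 162 FPKM in SryHi and 133 FPKM in B6M. It was lower in females by a log2 ratio of -0.75 and higher in SryHi by 0.28. Within a library Dcn was 2.11 times Bgn in B6F, 2.63 times in SryHi and 1.63 times in B6M.

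Lumican and PRELP, which bind collagen fibrils and basement membranes, were both lower in females. Lum, which lies beside Dcn on chromosome 10, had 9.87 FPKM in B6F, 18.4 FPKM in SryHi and 18.2 FPKM in B6M. B6F alone was low, with a log2 ratio of -0.82, while SryHi and B6M lay within 0.02, and Lum did not share the higher level of its neighbour Dcn in SryHi. Dcn was 16.8 times Lum in B6F, 23.1 times in SryHi and 11.9 times in B6M. Prelp had 4.95 FPKM in B6F, 7.70 FPKM in SryHi and 9.81 FPKM in B6M, with log2 ratios of -0.86 for B6F over B6M and -0.31 for SryHi over B6M. Prelp exons overlap an opposite-strand gene, Gm15851.

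Fibromodulin, which steers collagen fibril thickness and crosslinking, was lowest in SryHi. Fmod had 6.35 FPKM in B6F, 4.56 FPKM in SryHi and 8.73 FPKM in B6M, with log2 ratios of -0.40 and -0.81 over B6M. Fmod and Prelp are near neighbours on chromosome 1, and Prelp was 0.779 times Fmod in B6F, 1.69 times in SryHi and 1.12 times in B6M. Osteoglycin was the exception among the proteoglycans in females: Ogn had 3.27 FPKM in B6F, 3.86 FPKM in SryHi and 2.63 FPKM in B6M, a log2 ratio of 0.24 for B6F over B6M and 0.42 for SryHi over B6M. Versican, the large hyaluronan-binding proteoglycan, was low throughout, at 0.869 FPKM in B6F, 1.78 FPKM in SryHi and 1.54 FPKM in B6M for Vcan. Its log2 ratios were -0.44 for B6F over B6M and 0.13 for SryHi over B6M.

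The elastic fibre genes divided into a core and a set of low-expressed partners. Elastin, the elastic protein itself, had 14.4 FPKM in B6F, 24.1 FPKM in SryHi and 22.0 FPKM in B6M (Eln, log2 ratios -0.57 and 0.13 over B6M). Fibrillin 1, which forms the microfibrils that carry elastin, had 4.36 FPKM in B6F, 6.13 FPKM in SryHi and 6.45 FPKM in B6M (Fbn1, -0.47 and -0.06). B6F was the low library for both, and Eln was 3.31 times Fbn1 in B6F, 3.93 times in SryHi and 3.41 times in B6M. Fibulin 5, which brings elastin to the microfibrils, was lowest in B6F too, with 1.43 FPKM in B6F, 2.04 FPKM in SryHi and 2.21 FPKM in B6M (Fbln5, -0.40 and -0.07).

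Microfibril-associated protein 5, a microfibril component that binds fibrillin, had the lowest ratio of the members in females. Mfap5 (ENSMUSG00000030116.14, chr6:122505845-122529290) had 0.546 FPKM in B6F, 3.71 FPKM in SryHi and 2.30 FPKM in B6M. The log2 ratio was -1.10 for B6F over B6M and 0.51 for SryHi over B6M, and without the pseudocount B6F was 4.22 times lower. These levels rest on an estimated 5, 29 and 23 fragments, so counting error is large for this gene.

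Lysyl oxidase, which crosslinks elastin and collagen, and Efemp1, the gene of fibulin 3, were both highest in SryHi. Lox had 1.24 FPKM in B6F, 2.63 FPKM in SryHi and 1.24 FPKM in B6M, so that the wildtype pools coincided and the log2 ratio of SryHi over B6M was 0.70. Efemp1 (ENSMUSG00000020467.15, chr11:28853204-28926743) had 0.900 FPKM in B6F, 3.48 FPKM in SryHi and 1.19 FPKM in B6M, on an estimated 11, 37 and 16 fragments. Its log2 ratio was 1.03 for SryHi over B6M and -0.20 for B6F over B6M. Fibulin 1 went the other way at a low level, with 1.17 FPKM in B6F, 0.546 FPKM in SryHi and 1.39 FPKM in B6M for Fbln1. Fbln2, the gene of fibulin 2, had 4.02 FPKM in B6F, 3.44 FPKM in SryHi and 4.0 FPKM in B6M, a narrow range.

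The matricellular genes differed among themselves in which library was highest. Periostin, which binds collagen and tenascin C and aids collagen crosslinking, was the member with the highest ratio in SryHi. Postn (ENSMUSG00000027750.16, chr3:54361109-54391037) had 30.3 FPKM in B6F, 65.7 FPKM in SryHi and 27.4 FPKM in B6M, on an estimated 572, 1104 and 585 fragments. The wildtype pools were close, with a log2 ratio of 0.14, and SryHi stood 2.40-fold above B6M with a log2 ratio of 1.23. Relative to fibronectin in the same library Postn was 2.67 times in B6F, 6.11 times in SryHi and 2.52 times in B6M. Postn lies on chromosome 3, the autosome on which the FCG transgene is known to have inserted. The 578 protein-coding genes measured on chromosome 3 had a median log2 ratio of 0.14 for SryHi over B6M, against 0.03 over 12010 protein-coding genes, 14 of them (2.42%) were at least 2-fold higher, and Postn ranked at place 9 among them. Whether the insertion bears on Postn was not tested.

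SPARC, a collagen-binding glycoprotein, and its relative SPARC-like 1 (hevin) stood in different orders across the libraries. Sparc (ENSMUSG00000018593.12, chr11:55394500-55423183) had 32.3 FPKM in B6F, 45.9 FPKM in SryHi and 65.0 FPKM in B6M, with log2 ratios of -0.99 and -0.49 over B6M. Sparcl1, which is known as a vessel wall and high endothelial venule protein, had 7.99 FPKM in B6F, 16.4 FPKM in SryHi and 8.90 FPKM in B6M, with log2 ratios of -0.14 and 0.82. Sparc was 4.04 times Sparcl1 in B6F, 2.79 times in SryHi and 7.30 times in B6M.

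Thrombospondin 1, an adhesive glycoprotein of platelets, macrophages and stroma that activates latent TGF-beta, was highest in wildtype males. Thbs1 (ENSMUSG00000040152.8, chr2:118111876-118127133) had 3.29 FPKM in B6F, 4.48 FPKM in SryHi and 7.84 FPKM in B6M. Its log2 ratios were -1.04 for B6F over B6M and -0.69 for SryHi over B6M, on an estimated 113, 137 and 306 fragments. Thrombospondin 2, which is not stored in platelets, was level, with 6.23 FPKM in B6F, 6.83 FPKM in SryHi and 6.37 FPKM in B6M for Thbs2. Thbs1 was 0.529 times Thbs2 in B6F, 0.656 times in SryHi and 1.23 times in B6M. The summed FPKM of 5 platelet markers was 11.4 in B6F, 11.8 in SryHi and 20.7 in B6M, of which Itga2b alone gave 9.85, 9.99 and 17.8. Gp9 and Treml1 were listed at 0 in B6F and SryHi, and Ppbp, at 0.243, 0.281 and 0.216 FPKM, was not lower than in B6M. The summed FPKM of 8 neutrophil markers, all of them at least 2-fold lower on this scale in both pools than in B6M, was 53.0, 80.1 and 336. Their part in the Thbs1 difference was not tested.

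Tenascin C, a large glycoprotein of reticular fibres and remodelling tissue, was low in females alone. Tnc had 7.80 FPKM in B6F, 14.2 FPKM in SryHi and 15.5 FPKM in B6M, with log2 ratios of -0.91 and -0.12 over B6M. Its binding partner periostin did not follow, and Postn was 3.89 times Tnc in B6F, 4.63 times in SryHi and 1.77 times in B6M.

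**Figure D3:**
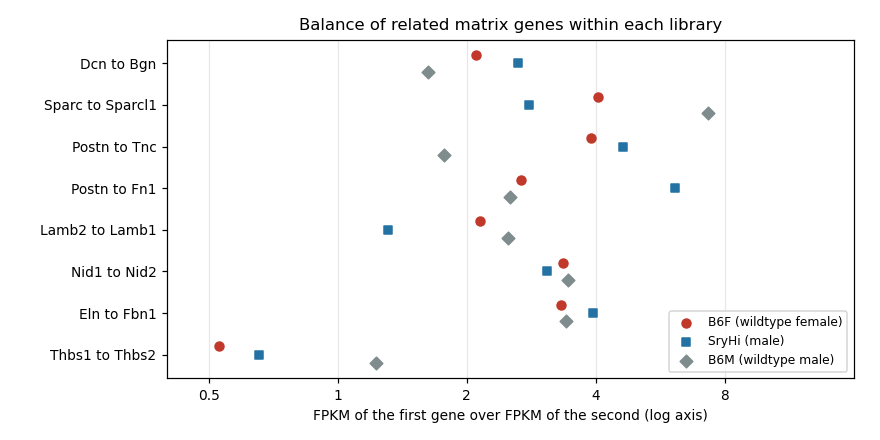
Ratio of the FPKM of 2 matrix genes within the same library, for pairs chosen after their values were seen, with B6F, SryHi and B6M as 3 points on a log axis. Sparc to Sparcl1 stands at 4.04, 2.79 and 7.30 and Postn to Tnc at 3.89, 4.63 and 1.77 in B6F, SryHi and B6M, while Nid1 to Nid2 stays between 3.08 and 3.45, and no rescaling of a library changes these values.

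The basement membrane genes leaned low in females, and in SryHi they differed by chain. In females 8 of 9 lay below 0 with a median log2 ratio of -0.31, and in SryHi 3 lay above and 6 below with a median of -0.04. The gene that stood apart was Lamb2 (ENSMUSG00000052911.9, chr9:108479736-108490530), the laminin beta 2 chain of vessel and muscle basement membranes, with 12.0 FPKM in B6F, 7.46 FPKM in SryHi and 15.8 FPKM in B6M. SryHi was low, with a log2 ratio of -0.99, and B6F was between, with -0.37. Lamb1, the beta 1 chain, was level at 5.59 FPKM in B6F, 5.70 FPKM in SryHi and 6.32 FPKM in B6M, and Lamb2 was 2.15 times Lamb1 in B6F, 1.31 times in SryHi and 2.50 times in B6M.

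The alpha chains, which carry the cell-binding sites of laminin, did not share that pattern. Lama4, the alpha 4 chain of endothelial and reticular basement membranes, had 12.1 FPKM in B6F, 16.6 FPKM in SryHi and 12.8 FPKM in B6M, and Lama5, the alpha 5 chain, had 5.34, 4.93 and 4.17 FPKM. Lama5 was the highest member in females by ratio, with a log2 ratio of 0.30 over B6M. Lama2, the alpha 2 chain of muscle and nerve, was near the limit at 0.821 FPKM in B6F, 1.22 FPKM in SryHi and 1.28 FPKM in B6M. Lamc1, the gamma 1 chain shared by most laminins, was steady with 14.8 FPKM in B6F, 17.2 FPKM in SryHi and 15.9 FPKM in B6M. Summed by chain, alpha came to 18.3, 22.8 and 18.2 FPKM, beta to 17.6, 13.2 and 22.1 FPKM and gamma to 14.8, 17.2 and 15.9 FPKM in B6F, SryHi and B6M.

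Perlecan, the heparan sulphate proteoglycan of basement membranes, was the other low member of this group in SryHi. Hspg2 had 8.08 FPKM in B6F, 6.35 FPKM in SryHi and 11.1 FPKM in B6M, with log2 ratios of -0.42 and -0.72 over B6M. The nidogens, which bridge laminin and type IV collagen, kept their proportion: Nid1 had 9.08 FPKM in B6F, 10.99 FPKM in SryHi and 12.4 FPKM in B6M, and Nid2 had 2.70, 3.56 and 3.60 FPKM. Nid1 was 3.36 times Nid2 in B6F, 3.08 times in SryHi and 3.45 times in B6M.

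Matrix Gla protein, an inhibitor of calcification, and matrilin 2, an adaptor of filamentous networks, closed the list. Mgp had 12.6 FPKM in B6F, 15.7 FPKM in SryHi and 16.4 FPKM in B6M, with log2 ratios of -0.36 and -0.06 over B6M. Matn2 had 2.00 FPKM in B6F, 2.48 FPKM in SryHi and 3.64 FPKM in B6M, with log2 ratios of -0.63 and -0.42. Counted over all 34 members, B6F was the lowest library for 23 (67.6%), against 33.6% of all genes averaging 1 FPKM or more, SryHi for 7 (20.6%, against 34.1%) and B6M for 4 (11.8%, against 32.3%). B6F was the highest library for 4 members (Fn1, Fbln2, Mfap4 and Lama5; 11.8%, against 31.1% of all genes), SryHi for 14 (41.2%, against 40.6%, a share near that of all genes) and B6M for 16 (47.1%, against 28.3%).

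Genes of the wider matrix gave a setting for these values. In B6F over B6M, 17 of 18 measured collagen chains lay below 0, with a median of -0.43 and 2 at least 2-fold lower, Col18a1 (0.619 FPKM in B6F and 2.59 FPKM in B6M) and Col1a1 (7.22 and 15.7 FPKM). Of 25 measured remodelling enzymes and inhibitors 20 lay below 0, with a median of -0.33 and 3 at least 2-fold lower, Mmp8, Serpinh1 and Plod1, the last named after its values were seen. Serpinh1, the collagen chaperone HSP47, had 12.0 FPKM in B6F and 28.9 FPKM in B6M. Further elastic fibre genes, 13 of 15 below 0, had a median of -0.47 and none reached 2-fold. The other lists lay between -0.38 and -0.11 in their medians: 5 basement membrane genes, 13 matricellular genes, of which Reln and Cyr61 were 2-fold lower, 22 receptors, of which Sdc3 was, and 7 proteoglycans. At least 2-fold lower were 2.77% of all genes and 1.58% of protein-coding genes. No measured gene of the 7 lists was 2-fold higher in B6F by this ratio, against 2.83% and 0.813%. Thbs3, named after its values were seen, came nearest with a log2 ratio of 0.90 (2.79 FPKM in B6F and 1.03 FPKM in B6M). Without the pseudocount it was 2.70-fold higher. Scaled to stromal and blood endothelial markers, the medians of receptors (0.08), matricellular genes (0.07) and proteoglycans (0.15) turned above 0, below the 0.27 of all genes.

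In SryHi over B6M the collagens and the other matrix genes parted. Of 18 collagen chains 14 lay below 0, with a median of -0.63 and 5 at least 2-fold lower, among them Col1a1 (6.54 FPKM in SryHi and 15.7 FPKM in B6M) and Col7a1 (0.175 and 2.95 FPKM). Shares 2-fold lower were 4.14% of all genes and 1.95% of protein-coding genes, and shares 2-fold higher were 3.7% and 1.97%. Counted from the all-genes median the collagen median was -0.67 on the FPKM scale and -0.73 on the total-FPKM scale. Here and below, such distances differ between the 2 scales only through the added 1. The 9 measured further proteoglycans had a median of 0.38. Counted from the all-genes median it was 0.34 on the FPKM scale and -0.01 on the total-FPKM scale. Spock3 was 2-fold higher (9.04 FPKM in SryHi and 2.26 FPKM in B6M) and Tsku 2-fold lower (2.53 and 6.13 FPKM). Of 14 further elastic fibre genes 6 lay above 0 and 8 below, with a median of -0.17 that became -0.23 when counted from the all-genes median of the total-FPKM scale. Among them Mmrn1, a protein of lymphatic endothelium and platelets, and Loxl3, a lysyl oxidase relative, were 2-fold higher. Mmrn1 had 31.0 FPKM in SryHi and 14.5 FPKM in B6M, and Loxl3 had 6.09 and 2.46 FPKM. Remodelling enzymes were even at 13 above and 13 below, with Mmp3 2-fold lower, 12 matricellular genes at 6 and 6, and receptors at 15 above and 7 below, with Itga3 2-fold higher (5.71 and 1.12 FPKM). Of 5 further basement membrane genes 3 lay above and 2 below, with a median of 0.14 that stood at -0.31 when counted from the all-genes median of the total-FPKM scale.

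**Figure D4:**
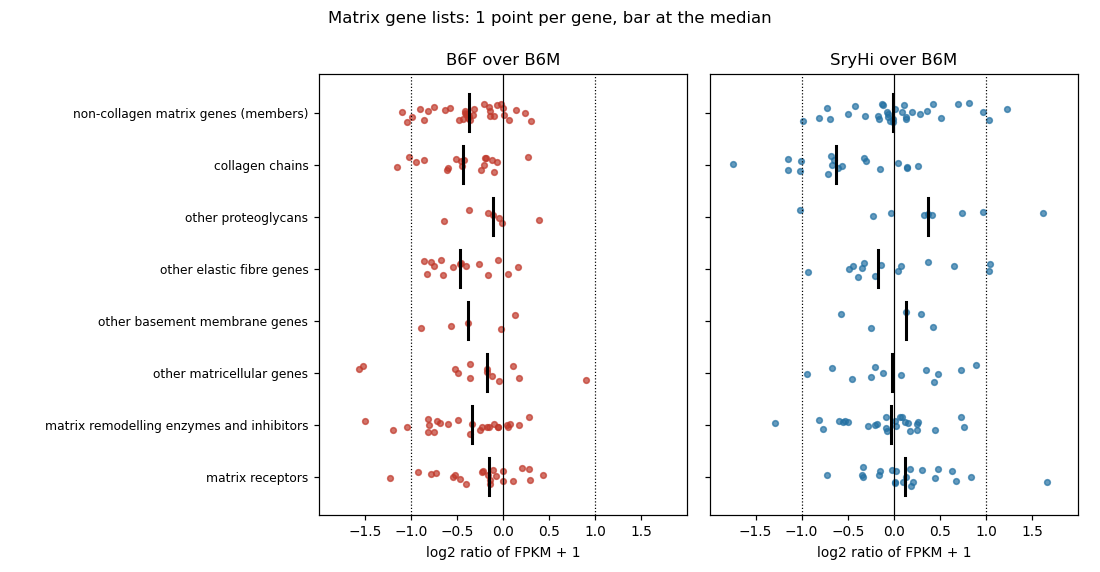
Log2 ratio of FPKM + 1 of every measured gene of the 34 members and of 7 further matrix lists, 1 point per gene, B6F over B6M on the left and SryHi over B6M on the right, with the median of each list marked. On the left every list has its median below 0, from -0.47 to -0.11, with receptors, further matricellular genes and further proteoglycans above 0 on the stromal marker scale. On the right the collagen chains lie at -0.63 and the further proteoglycans at 0.38. From the all-genes median they stand at -0.67 and 0.34 on the FPKM scale and at -0.73 and -0.01 on the total-FPKM scale, where only the added 1 weighs differently.

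Matrix genes are read here beside the cells that make them. The summed FPKM of 13 reticular and fibroblastic cell markers was 552 in B6F, 774 in SryHi and 692 in B6M, with Tcf21 listed at 0 in every library. Relative to the B6M library that is 0.797 times in B6F and 1.12 times in SryHi, where the matrix members' sum was 0.713 and 1.37 times. Without Dcn the members' sum was 0.689 times in B6F and 1.09 times in SryHi. Lymphatic endothelial markers summed to 70.2 FPKM in B6F, 151 FPKM in SryHi and 127 FPKM in B6M (Ccl21a listed at 0), blood endothelial markers to 274, 326 and 332 FPKM, and pericyte and smooth muscle markers to 122, 155 and 134 FPKM. B cell markers summed to 1205, 1181 and 1228 FPKM, and T cell markers to 581, 312 and 450 FPKM. All 12 T cell markers lay above 0 in B6F over B6M, with a median of 0.43. In SryHi over B6M 11 of the 12 lay below 0, with a median of -0.61.

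Summed markers of fat and muscle differed between the libraries too. The 12 adipocyte markers summed to 134 FPKM in B6F, 253 FPKM in SryHi and 115 FPKM in B6M, none of them at 0, and of 11 measured 8 were at least 2-fold higher in SryHi than in B6M. Fabp4 had 46.8 FPKM in B6F, 116 FPKM in SryHi and 49.95 FPKM in B6M, and Cfd had 24.2, 45.8 and 9.77 FPKM. Skeletal muscle markers summed to 24.95, 8.43 and 12.8 FPKM, macrophage markers to 173, 367 and 332 FPKM, and nerve markers to 35.6, 45.7 and 35.7 FPKM (S100b listed at 0). Tendon and cartilage markers were at 0.224 FPKM in B6F, 0.447 FPKM in SryHi and 0 FPKM in B6M, with Acan and Col2a1 listed at 0. The adipocyte markers were thus higher in SryHi together with Postn, Dcn, Efemp1, Lox and Sparcl1. Several sums were lower in B6F together with most members. Relative to B6M they were 0.797 (fibroblastic), 0.553 (lymphatic endothelial), 0.825 (blood endothelial) and 0.519 times (macrophage). Pericyte, neutrophil and platelet sums were lower there too, while adipocyte, muscle and T cell sums were higher. The adipocyte markers were mixed in B6F over B6M: of 10 measured, 6 lay above 0 and 4 below (Fabp4, Plin1, Lpl and Pnpla2). Most of the fibroblastic sum in B6F came from Cxcl12 (265 FPKM) and Cxcl13 (155 FPKM). Thy1, Il7 and Madcam1 of that list were not lower in B6F than in B6M. The part of these cell types in the matrix differences was not tested. With 3 mice in the SryHi pool the tissue taken with each node cannot be told apart from the genotype.

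**Figure D5:**
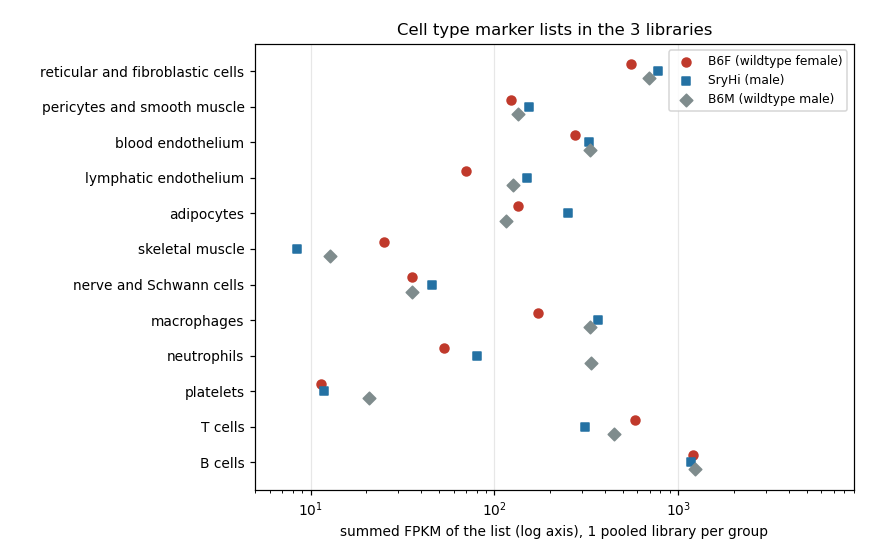
Summed FPKM of 12 cell type marker lists (tendon and cartilage left out) in the B6F, SryHi and B6M libraries on a log10 axis. Adipocyte markers stand at 134, 253 and 115 FPKM, neutrophil markers at 53.0, 80.1 and 336 FPKM and fibroblastic markers at 552, 774 and 692 FPKM in B6F, SryHi and B6M.

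At the 2-fold threshold, members just inside the threshold were Thbs1 (-1.04) for B6F over B6M and Efemp1 (1.03) for SryHi over B6M, and those just outside were Sparc (-0.99) and Dcn (0.97) with Lamb2 (-0.99). Exons of 12 members overlap an opposite-strand gene in the annotation (Fn1, Prelp, Fbn1, Eln, Mfap4, Lox, Tnc, Thbs1, Nid1, Nid2, Lama2 and Matn2), and whether the authors' counting used the strand is not given in the sources used here.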

How the data were processed

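RNA of whole popliteal lymphnodes was depleted of ribosomal RNA, made into stranded libraries and sequenced as 2 mates of 50 bases, 1 library per group. The authors deposited 2 Cuffdiff tables of FPKM, normalized by length and mapped fragments, on mm10. HiSat2 is named by the study, and SAMtools, Cufflinks and Cuffdiff also by the submitters' processing notes, without versions. Columns of the authors' own comparisons (log2 fold change, test statistic, p-value, q-value and call) were not used.

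Of 48808 entries per table, 231 symbols with several entries were summed, and 2 lines per table held no values. B6M had the same value in both tables for 48806 entries, all members included. Log2 ratios took a pseudocount of 1 FPKM, genes averaging 1 FPKM or more over the 2 libraries, and a 2-fold threshold. An intended filter on entries marked FAIL, HIDATA or LOWDATA met 0 entries. No replicate spread exists, so nothing was tested between groups, and intervals and floors were not given. Depth was estimated from the commonest low values of FPKM times transcript length in single-transcript genes and is approximate. Positions come from GENCODE M21 (GRCm38), whose gene version was the same for 22 members. All members are named, as are the 2 measured genes of each of 7 matrix lists with the largest absolute ratio, and of each of 13 marker lists the 2 highest and any at 0, of which those that bear on a result are given values. The members and lists were chosen with earlier results of these data known, and gene pairs, counts by chromosome 3 and the ratio without a pseudocount after seeing the data. Alternatives were pseudocounts of 0.1 and 5, a minimum mean of 5 FPKM and none, a 1.5-fold threshold, and rescaling to the total FPKM (TPM), to the median gene and to stromal and blood endothelial markers, and the highest entry of a symbol in place of the sum. Calculations used Python 3.11.15, pandas 2.3.3 and NumPy 2.4.6 and were tested on simulated data.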

Additional observations from a re-analysis of the deposited data

How the results depend on the processing

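For B6F over B6M the members' median of -0.37 (all genes 0.01) became -0.16 with a pseudocount of 5 (all genes 0.01), -0.10 when scaled to stromal and blood endothelial markers (all genes 0.27) and -0.28 on the TPM scale (all genes -0.16), so that the distance from all genes was -0.38 as reported, -0.17 with the pseudocount, -0.13 on TPM and -0.37 with the markers. The 2 members lower became 3 with a pseudocount of 0.1 and 3 with none (Sparc joined, against 4.53% and 4.01% of all genes), 0 with a pseudocount of 5 (1.08%), 0 with the marker scaling (1.95%), 1 at a minimum mean of 5 FPKM (2.06%), 1 on TPM (Sparc, 1.54%) and 8 at 1.5-fold (7.87%). For SryHi over B6M the median of -0.01 became 1.24 on TPM, where that of all genes was 1.28. The 2 members higher became 22 of 32 on TPM, against 69.0% of all genes, 3 with a pseudocount of 0.1 and 3 with none (Lox joined, 6.07% and 5.79%), 1 with a pseudocount of 5 (1.23%), 1 at a minimum mean of 5 FPKM (2.76%), 1 scaled to the median gene (3.35%), 1 with the marker scaling (2.86%), each of these being Postn, and 5 at 1.5-fold (12%). The 0 members lower became 1 (Lamb2) with a pseudocount of 0.1 (6.01%), 1 with none (5.47%), 1 scaled to the median gene (4.39%), 1 with the marker scaling (4.84%) and 4 at 1.5-fold (10.7%). A TPM unit was worth 5.15 FPKM in B6F, 1.35 FPKM in SryHi and 4.29 FPKM in B6M, so the same pseudocount weighed more on that scale, by its construction. Counted from the all-genes median of that scale, Postn stood at 1.47, Dcn at 1.34 and Lamb2 at -0.80 in SryHi. The cause of the other shifts was not tested. No paired analysis was possible because each group had 1 library, and for that reason no library could be left out. Depth limits Mfap4, Mfap5, Efemp1 and Fbln1, each with under 20 estimated fragments in some library.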

Other observations

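The small leucine-rich proteoglycan genes beside Ogn on chromosome 13, chosen after their values were seen, were higher in SryHi. Aspn (asporin) had 3.03 FPKM in B6F, 6.93 FPKM in SryHi and 3.05 FPKM in B6M, Omd (osteomodulin) had 0.640, 1.56 and 0.281 FPKM, and Ecm2 had 3.21, 6.05 and 4.43 FPKM. Ogn itself had 3.27, 3.86 and 2.63 FPKM. Reln, the secreted glycoprotein reelin, which lymphatic endothelium also makes, had 3.90 FPKM in B6F, 18.6 FPKM in SryHi and 13.5 FPKM in B6M, and the lymphatic marker Lyve1 had 18.8, 41.4 and 45.6 FPKM, both lowest in females. Cyr61 had 3.56, 5.85 and 12.1 FPKM and its relative Ctgf had 1.35, 4.62 and 2.02 FPKM, so these CCN family genes stood in different orders across the libraries.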
